A study of Mus musculus with 1753 samples.

Results

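Cluster 10 is a small group of fibroblasts in mouse skeletal muscle that shares the NG2 gene Cspg4 with the cells of the vessel wall, and it was compared here with the mural cells of cluster 7. The cluster numbers came from the label of each cell, and 62 cells of cluster 10 and 187 of cluster 7 were found among 1753 cells. The cells had been sorted singly from hindlimb muscle of adult male mice aged 10 to 20 weeks and sequenced with Smart-seq2, which copies polyadenylated RNA at full length and amplifies it by PCR without molecular identifiers. All sorted cells were negative for CD31, the protein of the endothelial gene Pecam1, and all mouse lines were on a C57Bl6/J background. Of the 5 strain labels, 3 held both clusters. Cspg4dsRED, a line in which the Cspg4 promoter drives a red fluorescent protein, gave 37 cells of cluster 10 and 74 mural cells. The PdgfraGFP - PdgfrbGFP pool, called the pool below, covers cells of a pair of lines that carry green fluorescent protein under Pdgfra or Pdgfrb, and it gave 17 and 11 cells. PdgfrbGFP, in which Pdgfrb drives green fluorescent protein, gave 8 and 37. Acta2GFP, which reports smooth muscle actin, and C57BL6, which carries no reporter and was sorted by antibody to the PDGF receptors, held 56 and 9 mural cells and no cell of cluster 10. Fluorescence of a reporter, and not the protein of the gene itself, chose the cells in the reporter lines.

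Mural cells surround the endothelium, as smooth muscle cells on arteries and veins and as pericytes on capillaries. They contract or stabilise the vessel, they are recruited by PDGF-B from the endothelium through the receptor PDGFRb, and Notch signalling from neighbouring cells maintains their arterial identity. Fibroblasts build the interstitial matrix of collagens and proteoglycans, and PDGFRa is their customary surface marker. NG2, the chondroitin sulfate proteoglycan encoded by Cspg4, is widely used to mark pericytes, so a fibroblast that carries it enters the same sort gate. In peripheral nerve, fibroblast-like cells lie inside the fascicle (endoneurium), in the barrier sheath around it (perineurium) and in the outer sheath (epineurium), and genes known from these layers were therefore followed as well.

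The share of cluster 10 among the sorted cells differed with the gate. It was 20.4% of the 181 cells of Cspg4dsRED (95% exact binomial interval 14.8 to 27.1%), 4.13% of the 412 cells of the pool (2.42 to 6.52%) and 1.27% of the 630 cells of PdgfrbGFP (0.55 to 2.49%). Mural cells made up 40.9%, 2.67% and 5.87% of the same labels. Finding 0 cells of cluster 10 among 157 in Acta2GFP allows a share of up to 1.91%, and 0 among 373 in C57BL6 allows up to 0.804%, taking 3 cells as the limit, with exact upper bounds of 2.32% and 0.984%. Each label was sorted with its own gate, so the shares cannot be told apart from the sort. The intervals cover counting error only.

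Depth was of the same order on both sides. The 62 cells of cluster 10 had a median of 187616 counts and the 122 mural cells of the same labels one of 145821. The number of genes found per cell differed with the label. Its median in Cspg4dsRED, the pool and PdgfrbGFP was 2316, 5503 and 4489.5 in cluster 10. In mural cells it was 2306.5, 4896 and 4187. The part of this difference in the shares of cells below was not tested. Adding up the raw counts of a cluster within a label gave 6 libraries of 2050722 to 10585966 counts. Mitochondrial genes took a median of 0.972 to 1.20% of the counts in the 3 labels of cluster 10 and 2.40 to 3.01% in those of the mural cells, and their part in the results below was not tested. Endothelial RNA stood out in 1 of the 8 cluster 10 cells of PdgfrbGFP, with 599.6 Pecam1, 491.7 Kdr and 581.9 Mcam counts per 500000 beside 599.6 of Pdgfra and 270.6 of Ngfr. It also stood out in 1 of the 11 mural cells of the pool, with 432.1 of Pecam1 and 687.5 of Kdr. In PdgfrbGFP all 8 cells of cluster 10 came from 1 plate, which also held 14 of the 37 mural cells.

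Single cells of both clusters held Cspg4, but they held it beside different partners. Counting a gene as present at 100 or more counts per 500000 counts of the cell, Cspg4 was present in 22 of 37 cluster 10 cells of Cspg4dsRED, 6 of 17 of the pool and 3 of 8 of PdgfrbGFP. Among mural cells it was present in 73 of 74, 8 of 11 and 9 of 37. Only Cspg4dsRED had been sorted on this gene. Pdgfra was present in 14, 15 and 8 of the same cluster 10 cells and in 0 of the 122 mural cells, a count that allows up to 2.46% when 3 cells are taken as the limit, or 2.98% by the exact interval. Ngfr, which encodes the p75 neurotrophin receptor, was present in 12, 10 and 7 cluster 10 cells and again in 0 of 122 mural cells.

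The opposite held for the mural genes. Myh11, the smooth muscle myosin heavy chain, was present in 73 of 74, 8 of 11 and 36 of 37 mural cells and in 0 of the 62 cells of cluster 10, which allows up to 4.84% on the same limit of 3 cells, or 5.78% by the exact interval. Notch3, the Notch receptor of mural cells, was present in 42, 10 and 24 mural cells and likewise in 0 of 62. Cspg4 and Pdgfra were present together in 18 of 62 cluster 10 cells, 0 of 122 mural cells and 76 of 1039 other fibroblasts of these labels, meaning clusters 1 to 6, 8 and 9. The combination of Cspg4, Pdgfra and Ngfr was met in 13 of 62, 0 of 122 and 1 of 1039. Cspg4 and Myh11 were together in 86 of 122 mural cells and 0 of 62. No cell of cluster 10 combined Pdgfra with Myh11 or Notch3, nor did any of the 122 mural cells, while 17 of the 1039 other fibroblasts did. At a threshold of 1 count, Myh11 was met in 64.5% of cluster 10 cells and Cd34, a fibroblast gene, in 86.9% of mural cells. Low counts of both genes were thus found in most cells of the other cluster. At that threshold Notch3, Pdgfra and Ngfr were each met in a minority of cells of the other cluster.

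**Figure D1:**
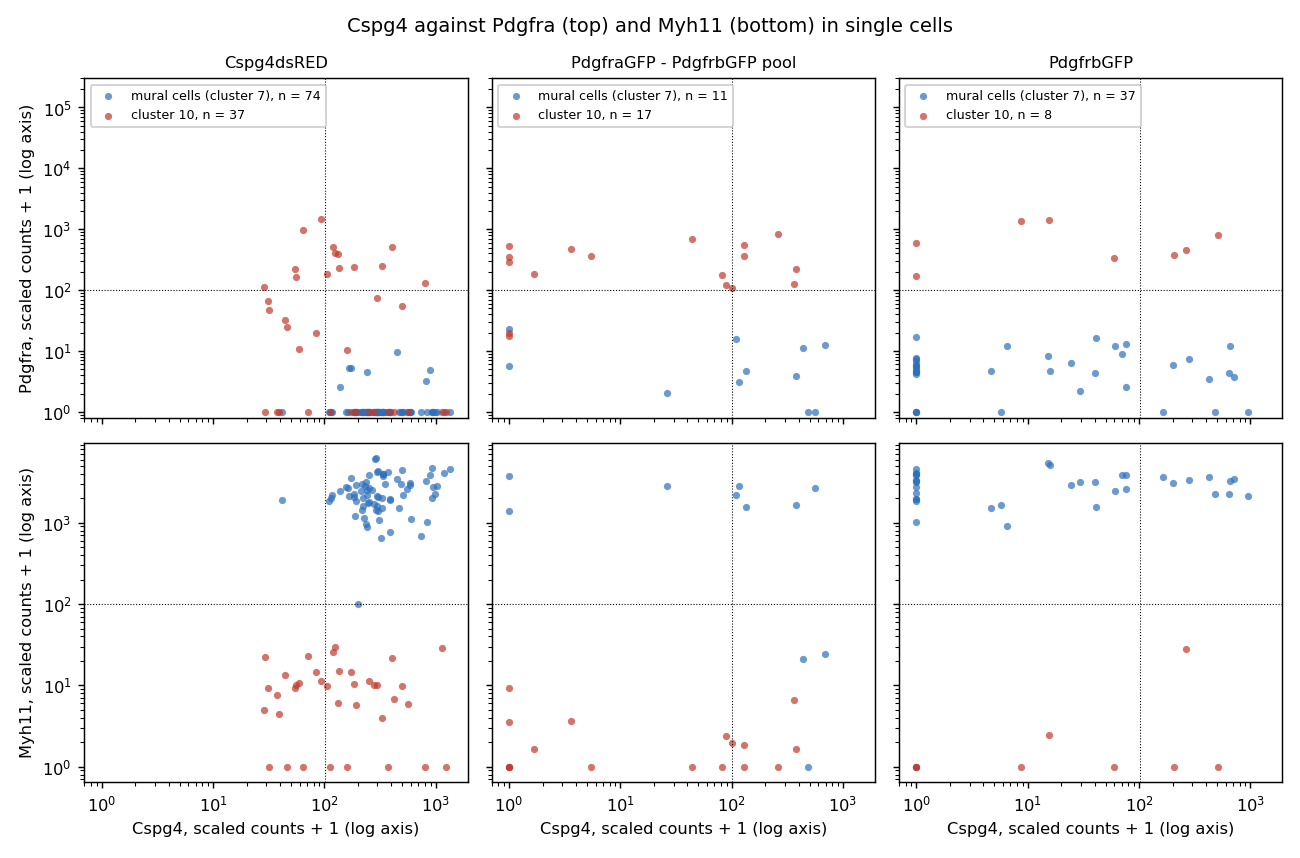
Each point is 1 cell, with its Cspg4 counts per 500000 counts plus 1 on the horizontal log axis and Pdgfra (top row) or Myh11 (bottom row) on the vertical log axis, in Cspg4dsRED, the pool and PdgfrbGFP; dotted lines mark the threshold of 100. Cells of both clusters lie right of the vertical line, but no mural cell lies above the line for Pdgfra and no cluster 10 cell above the line for Myh11.

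Acta2, smooth muscle actin, was met in single cells of both clusters. It was present in 25 of 37 cluster 10 cells of Cspg4dsRED, 0 of 17 of the pool and 1 of 8 of PdgfrbGFP, against 120 of the 122 mural cells. In Cspg4dsRED it was also present in 37.1% of the 70 other fibroblasts, against 8.85% in the pool and 15.9% in PdgfrbGFP. The median over cluster 10 was 66.1 scaled counts and that over mural cells 6137. Presence of Acta2 in cluster 10 was thus concentrated in the label that also had the most of it in other fibroblasts. Sox9, a transcription factor of cartilage and of nerve-associated fibroblasts, was present in 24 of 37, 13 of 17 and 7 of 8 cluster 10 cells and in 0 of 122 mural cells.

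Across all genes, the 6 summed libraries were compared with edgeR's quasi-likelihood test with the strain label as a block, and a gene is called where the Benjamini-Hochberg adjusted p over all genes tested is under 0.05. Of 11351 genes tested, 687 were called, or 6.05%, with 365 (3.22%) higher and 322 (2.84%) lower in cluster 10. Among these, 654 (5.76%) also had a log2 fold change of at least 2. The authors had made the clusters from these same counts, so the calls describe what the clusters consist of and how steady it was over the labels. They do not test whether the clusters differ. With counts under 3 raised to 3, the direction was the same in all 3 labels for 686 of the called genes. The exception, named after its values had been seen, was the cytokine gene Il6. It stood at 157, 0.134 and 199 CPM in cluster 10 of Cspg4dsRED, the pool and PdgfrbGFP, against 6.62, 0 and 2.81 in mural cells. CPM are counts rescaled so that libraries of unequal depth can be compared. In the pool both clusters were under the floor of 3 counts, so the values show no reversal there.

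Below, CPM values are of the summed cells, given in the order Cspg4dsRED, pool and PdgfrbGFP, and they compare groups for 1 gene, not genes with each other. Fold changes are log2 of cluster 10 over mural cells. Calls within a list are to be read beside the 3.22% of all tested genes called higher and the 2.84% called lower. The fit had 2 residual degrees of freedom, and 3 labels cannot give an exact test a p below 0.25.

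Among the genes on which cells had been sorted, both PDGF receptor genes were called between the clusters and Cspg4 was not. Cspg4 stood at 544, 204 and 293 CPM in cluster 10 and at 935, 437 and 275 CPM in mural cells. The ranges overlapped, and the log2 fold change of -0.49 (SE 0.40, edgeR adjusted p 0.655) was not called. The share of cells with Cspg4 was still lower in cluster 10 than in mural cells of Cspg4dsRED (59.5% against 98.65%) and the pool (35.3% against 72.7%). In PdgfrbGFP it was 37.5% against 24.3%. In the pool and PdgfrbGFP, where no gate was set on it, other fibroblasts had 52.1 and 53.4 CPM. Pdgfra stood at 326, 560 and 1631 CPM in cluster 10 and at 0.827, 12 and 9.82 in mural cells, far apart in every label (log2 fold change 7.23, SE 0.77, edgeR adjusted p 0.00192). Pdgfrb went the other way, with 116, 166 and 203 CPM in cluster 10 and 267, 1347 and 1005 in mural cells. Its groups did not overlap (-2.07, SE 0.48, edgeR adjusted p 0.0497), but the call was lost under 5 of the alternative analyses, among them without PdgfrbGFP (edgeR adjusted p 0.123) and without the pool (0.237). Other fibroblasts held 310, 300 and 557 CPM of Pdgfrb, more than cluster 10 in each label. Acta2 stood at 357, 11.4 and 188 CPM against 16130, 4102 and 9372 (-6.34, SE 0.72, edgeR adjusted p 0.00248).

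The PDGF ligands were read from the mural side. Pdgfa, which encodes the ligand of PDGFRa, stood at 233, 283 and 144 CPM in mural cells and at 0.701, 0.403 and 0 in cluster 10, so the receptor and its ligand gene were found in opposite clusters (-9.05, SE 1.02, edgeR adjusted p 0.00248). An antisense transcript overlaps 26.1% of the exon length of Pdgfa, and use of strand in the counting was not stated. Pdgfb and Pdgfd were tested and not called, at 46.7, 167 and 47.7 CPM and at 28.9, 20.9 and 59.9 CPM in mural cells against at most 1.5 CPM in cluster 10. Their adjusted p-values in edgeR were 0.0534 and 0.151. Pdgfc was below the count filter.

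Fibroblast genes were high in cluster 10. Of 16 fibroblast markers, all were tested, 13 were called higher and none lower, where 3.22% of all tested genes were called higher, and their median log2 fold change was 5.20 beside -0.23 over all genes tested. Col1a1, a chain of type I collagen, stood at 6449, 6507 and 8904 CPM in cluster 10 against 114, 275 and 286 in mural cells (5.22, SE 0.40, edgeR adjusted p 0.000961). The proteoglycan gene Lum stood at 5402, 2778 and 5239 against 15.9, 62.5 and 46.2 CPM. Each was at least as high in cluster 10 as in the other fibroblasts, where Col1a1 was 4436 to 6054 CPM and Lum 1223 to 1758 CPM. Dcn, decorin, was at 14050, 5489 and 8670 CPM against 117, 520 and 523, with a call at log2 4.81 (SE 0.75, edgeR adjusted p 0.0104). Cd34, a surface sialomucin, was at 3559, 1654 and 1459 CPM against 13, 40.8 and 33.4. Mmp2, a matrix metalloproteinase, was at 7623, 3803 and 5830 against 27.8, 87.2 and 44.2 (6.99, SE 0.64, edgeR adjusted p 0.00133). Igfbp6, a binder of insulin-like growth factors, was at 3242, 938 and 1082 against 22.1, 69.8 and 55.7. None of these groups overlapped.

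The 3 fibroblast markers that were not called were Col5a1, Loxl1 and Fbln1. Fbln1, a matrix glycoprotein gene, was at 8.88, 7.65 and 9.00 CPM in cluster 10, close to the 2.60, 10.4 and 24.4 CPM of mural cells and far from the 1252, 469 and 1059 CPM of other fibroblasts. Loxl1, a lysyl oxidase that crosslinks elastin, was at 95.8, 74.2 and 29.5 CPM in cluster 10, below the 191, 110 and 90.8 of mural cells and the 597 to 858 of other fibroblasts. For these 2 genes cluster 10 did not have the level of its fellow fibroblasts, a difference that was described and not tested.

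**Figure D2:**
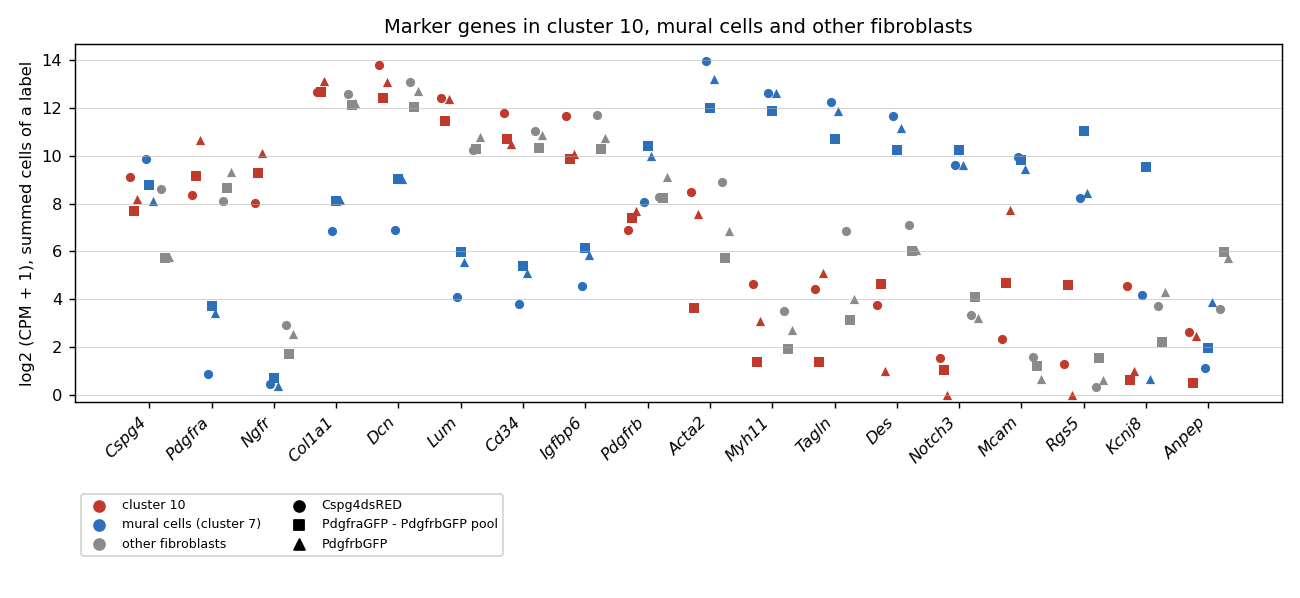
Marker genes along the horizontal axis and log2 of CPM plus 1 on the vertical axis, each symbol the summed cells of 1 strain label (circle Cspg4dsRED, square the pool, triangle PdgfrbGFP) in cluster 10 (red), mural cells (blue) and other fibroblasts (grey). Cspg4 is the only one of the first 8 genes where red and blue symbols intermingle, and from Acta2 to Notch3 all red symbols lie below all blue ones.

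Mural genes were low in cluster 10. Of 18 mural markers, 12 were called lower and none higher, where 2.84% of all tested genes were called lower, with a median log2 fold change of -6.98. Notch3 stood at 1.87, 1.07 and 0 CPM in cluster 10 and at 790, 1219 and 781 in mural cells (-9.78, SE 0.85, edgeR adjusted p 0.00118). Rgs5, a regulator of G protein signalling used as a pericyte marker, stood at 1.40, 22.9 and 0 CPM against 298, 2121 and 347 (-7.61, SE 0.88, edgeR adjusted p 0.00275). Des, the intermediate filament desmin, was at 12.4, 23.9 and 1.00 CPM against 3254, 1214 and 2297. Cox4i2, an isoform of a cytochrome oxidase subunit known from lung and vessels, was at 0, 0.268 and 0 CPM against 264, 462 and 270 (-11.27, SE 0.97, edgeR adjusted p 0.00118). Gja4, the gap junction gene of arterial smooth muscle and endothelium, was at 4.44, 0.134 and 0 against 1153, 645 and 508.

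Mcam, a marker shared by mural and endothelial cells, was not called. It stood at 3.97, 24.3 and 208 CPM in cluster 10 and at 992, 913 and 691 in mural cells (-4.91, SE 1.25, edgeR adjusted p 0.0674). The high value was that of PdgfrbGFP, which holds the cell with Pecam1, and without the 2 cells with Pecam1 Mcam was called (-5.54, edgeR adjusted p 0.00682). It was also called without PdgfrbGFP (edgeR adjusted p 0.00265) and without Cspg4dsRED (0.0427). Other markers often used for pericytes were not called either. Most mural cells here held Myh11 and Acta2, and the paper reports that few pericytes were captured from skeletal muscle. The contrasts with mural cells are thus mainly contrasts with cells that held smooth muscle genes. Kcnj8, a potassium channel subunit, was at 17.0, 734 and 0.561 CPM in mural cells, high in the pool alone, and at 22.4, 0.537 and 1.00 in cluster 10. Within the pool its mural level was 1861 CPM on the gastrocnemius plate and 0 on the soleus plate. Anpep, the aminopeptidase CD13, was at 1.18, 2.84 and 13.6 CPM in mural cells and at 5.14, 0.403 and 4.50 in cluster 10, low in both. Vtn, vitronectin, was at 727, 307 and 338 CPM in cluster 10 and at 104, 402 and 57.5 in mural cells (1.85, SE 0.74, edgeR adjusted p 0.234).

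The contractile apparatus was almost wholly on the mural side, with a larger share of its tested members called than in any other of the 28 lists. Of 18 smooth muscle contractile genes, 17 were called lower in cluster 10, with a median log2 fold change of -6.58, and only Actg2 was not. Myh11 stood at 23.6, 1.61 and 7.50 CPM against 6264, 3712 and 6299 (-9.47, SE 0.78, edgeR adjusted p 0.00118). Myocd, myocardin, the coactivator that switches on smooth muscle genes, was at 1.40, 0.671 and 0 CPM against 683, 626 and 700 (-9.73, SE 0.85, edgeR adjusted p 0.00118). Sorbs2, an adaptor of the actin cytoskeleton, was at 3.51, 1.07 and 1.00 against 1278, 1533 and 2701, and Ldb3, a PDZ and LIM protein of contractile cells, at 1.40, 0.134 and 0 against 501, 190 and 292. Tagln, transgelin, was at 20.3, 1.61 and 33.5 CPM against 4809, 1646 and 3714 (-8.02, SE 0.75, edgeR adjusted p 0.00139), though antisense transcripts, among them Pcsk7, overlap 67.9% of its exon length. Some members of the list differed less but were still called. Smtn, smoothelin, was at 549, 319 and 181 CPM against 2848, 1305 and 2268, and Cald1, caldesmon, at 185, 327 and 308 against 1218, 1320 and 1895 (-2.34, SE 0.35, edgeR adjusted p 0.00898). Actg2, enteric smooth muscle actin, was at 1.17, 0 and 13.5 against 154, 51.8 and 78.2 CPM (-6.26, SE 2.09, edgeR adjusted p 0.152).

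Many smooth muscle genes are bound by serum response factor, the partner of myocardin, at the CArG box, which begins with CC, ends with GG and holds 6 bases in between that are each A or T. The promoter window of 250 bases before to 50 bases after the gene start was searched on both strands in the RefSeq table (GRCm38.p6) for the 14 contractile genes with an entry. Myl9 and Ldb3 held such a box, which is 14.3% of the 14 genes beside 1.81% of the 27025 genes of the table and 1.52% of the tested genes with an entry. Allowing 1 of the 6 bases to be C or G, a form tried after the sequences had been seen, added Acta2 and Pcp4l1, or 28.6% of the 14 beside 11.3% of all genes and 10.6% of those tested. A match is only a description of letters. The windows of the 3 genes below were picked because they held a box, and capitals mark the boxes. Most of the 14 genes, though lower in cluster 10 as well, held no box of either form. Pcp4l1, with a box of the looser form, is not shown. The Acta2 window lies at chr19:34255324-34255623 on the minus strand, with boxes of the looser form starting at positions -84 and -34 from the gene start. The Myl9 window lies at chr2:156775214-156775513 on the plus strand, with a strict box starting at -161 and a looser one at -99. The Ldb3 window, 1 of a pair in the table, lies at chr14:34588558-34588857 on the minus strand, with a strict box starting at -109.
Acta2: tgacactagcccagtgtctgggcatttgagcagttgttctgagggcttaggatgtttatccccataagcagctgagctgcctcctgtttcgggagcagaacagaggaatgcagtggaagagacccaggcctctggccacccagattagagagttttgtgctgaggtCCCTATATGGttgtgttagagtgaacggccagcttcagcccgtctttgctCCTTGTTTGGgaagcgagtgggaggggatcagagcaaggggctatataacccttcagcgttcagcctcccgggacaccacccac
Myl9: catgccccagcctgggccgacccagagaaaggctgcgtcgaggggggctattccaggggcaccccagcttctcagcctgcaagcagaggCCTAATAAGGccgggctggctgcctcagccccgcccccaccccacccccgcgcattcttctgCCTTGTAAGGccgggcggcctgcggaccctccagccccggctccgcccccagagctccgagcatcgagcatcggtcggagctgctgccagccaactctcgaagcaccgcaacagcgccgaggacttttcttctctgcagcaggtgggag
Ldb3: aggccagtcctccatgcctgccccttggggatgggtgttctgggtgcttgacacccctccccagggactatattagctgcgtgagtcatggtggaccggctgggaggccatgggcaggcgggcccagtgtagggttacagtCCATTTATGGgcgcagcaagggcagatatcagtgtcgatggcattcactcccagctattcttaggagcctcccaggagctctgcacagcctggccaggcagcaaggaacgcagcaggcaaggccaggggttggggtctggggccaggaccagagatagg
Myl9, the regulatory light chain, stood at 520, 141 and 94.0 CPM in cluster 10 and at 9607, 3355 and 5722 in mural cells (-4.78, SE 0.46, edgeR adjusted p 0.00151). Myh11, Tagln, Actg2 and Myocd had no entry in the table.

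Genes of calcium handling and membrane excitability followed the contractile genes in direction. Of 18 such genes, 17 were tested, 7 were called lower and none higher. Kcna5, a voltage-gated potassium channel, was at 0.701, 0.134 and 0 CPM in cluster 10 and at 305, 381 and 431 in mural cells (-10.14, SE 1.00, edgeR adjusted p 0.00172). Kcnmb1, the beta subunit of the calcium-activated potassium channel, was at 0.935, 0.805 and 0 against 330, 200 and 244. The T-type calcium channel gene Cacna1h was at 0.935, 0 and 0 CPM against 185, 261 and 186 (-9.66, SE 1.46, edgeR adjusted p 0.0092). Pln, phospholamban, was at 2.81, 0.805 and 12.5 CPM against 783, 1003 and 1113, with antisense transcripts including Cep85l over 64.7% of its exon length. Casq2, the calcium store protein calsequestrin, had the smallest difference of the 7, at 78.8, 29.7 and 375 CPM against 1050, 1005 and 984 (-3.32, SE 0.75, edgeR adjusted p 0.0454), while other fibroblasts had at most 2.30 CPM. Kcnk3, a background potassium channel, had 0 counts in cluster 10 and 94.5, 71.1 and 63.4 CPM in mural cells, at least 42.3-fold higher in each label when 3 counts are taken as the floor. It was not called (edgeR adjusted p 0.0505).

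Receptors through which vessels are constricted or dilated were split less evenly. Of 23 vasoactive receptors, 15 were tested and 5 called lower, with none higher. Npy1r, the neuropeptide Y receptor, was at 1.17, 0 and 1.00 CPM against 304, 372 and 573 (-9.38, SE 1.14, edgeR adjusted p 0.00352). Hcrtr1, the orexin receptor, had 0 counts in cluster 10 and 79.5, 157 and 87.7 CPM in mural cells, at least 58.5-fold higher in each label (edgeR adjusted p 0.0265, or 0.084 without the pool). The purinergic channel gene P2rx1 was at 0.935, 0 and 0 against 522, 86.2 and 594 CPM. On the gastrocnemius plate of the pool, both Hcrtr1 and P2rx1 had 0 counts in the 6 mural cells too. Ednra, the endothelin receptor, kept 21, 80.1 and 62.5 CPM in cluster 10 against 586, 1206 and 678 (-3.93, SE 0.46, edgeR adjusted p 0.00297). Not every receptor was on the mural side. Agtr1a, the angiotensin receptor, was at 180, 122 and 135 CPM in cluster 10 and at 0.354, 101.4 and 7.58 in mural cells, a difference that was not called (4.29, SE 1.88, edgeR adjusted p 0.285).

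Notch signalling divided by receptor. Of 13 Notch genes, 8 were tested, 5 were called lower and none higher. Beside Notch3, these were Heyl, at 3.74, 0.939 and 1.00 CPM against 339, 363 and 412 (-7.70, SE 0.81, edgeR adjusted p 0.00185), and Hey2, at 0.234, 0.134 and 0 against 173, 65.1 and 146, both transcription factors that Notch induces. The ligand gene Jag1 was at 0.234, 4.56 and 0.500 CPM against 102, 199 and 220 (-7.21, SE 1.17, edgeR adjusted p 0.0125). Nrarp, a feedback inhibitor, was at 0.701, 0.134 and 0 against 138, 423 and 175, with an antisense gene over 79.4% of its exon length. Notch1 and Notch2 did not follow. Notch1 was at 43.5, 177 and 208 CPM in cluster 10 and at 61.0, 235 and 242 in mural cells (-0.26, SE 0.49, edgeR adjusted p 0.872), and both clusters lay above the 6.06, 33.9 and 17.6 CPM of other fibroblasts. Notch2 was at 60.1, 133 and 171 against 21.3, 157 and 78.3 CPM.

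Cluster 10 held genes of neurotrophin and GDNF reception. Of 18 genes of these families, 11 were tested, 2 were called higher and 1 lower, beside 3.22% and 2.84% of all genes tested. Ngfr stood at 256, 613 and 1100 CPM in cluster 10 and at 0.354, 0.632 and 0.281 in mural cells (10.48, SE 0.75, edgeR adjusted p 0.000953). Other fibroblasts had 6.57, 2.22 and 4.75 CPM, so cluster 10 exceeded both groups in all 3 labels. Gfra1, the GDNF co-receptor, was at 277, 854 and 1025 CPM against 0.118, 4.42 and 1.26 (9.25, SE 0.85, edgeR adjusted p 0.00133), with 48.4 to 115 CPM in other fibroblasts. Its signalling partner Ret was at 1.64, 54.0 and 130 CPM and was not called (edgeR adjusted p 0.592). The neurotrophin sorting receptor Sort1 was the lower one, at 2.81, 6.58 and 2.00 CPM against 163, 366 and 130 (edgeR adjusted p 0.0047, or 0.0556 without the pool). Among the ligands, Ntf3 was at 0.701, 8.46 and 29.5 CPM in cluster 10 and at 244, 107 and 148 in mural cells, and it was not called (edgeR adjusted p 0.134).

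Markers of the nerve sheaths were unevenly represented. Of 8 endoneurial fibroblast markers, 7 were tested and 4 called higher, where 3.22% of all tested genes were called higher. Their median log2 fold change was 7.33. Summed over the list, cluster 10 had 4283, 3966 and 4222 CPM and mural cells 95.8, 171 and 89.7. Other fibroblasts had 3431, 2931 and 3173 CPM, so the sum set cluster 10 apart mainly from mural cells. Sox9 stood at 805, 919 and 778 CPM against 0.827, 5.69 and 2.81 (8.49, SE 0.73, edgeR adjusted p 0.00118). Osr2, an odd-skipped transcription factor, stood at 1883, 413 and 872 against 3.43, 1.58 and 0.842 (9.18, SE 0.62, edgeR adjusted p 0.000953). Both were far above other fibroblasts, where Sox9 was 33.4 to 70.1 CPM and Osr2 27.8 to 90.5. The lipid transporter genes Abca8a and Abca9 were at 776, 1114 and 1603 CPM against 2.01, 16.1 and 11.8, and at 224, 1182 and 767 against 0.591, 40.1 and 2.10. Other fibroblasts were below cluster 10 in each label, at 258, 713 and 866 CPM of Abca8a and 71.1, 404 and 314 of Abca9.

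The perineurial list gave a mixed result. Of 12 markers, 6 were tested, 2 were called higher and 1 lower. Tenm2, a teneurin adhesion protein, was at 266, 256 and 253 CPM against 0.472, 0.632 and 0 (9.77, SE 1.11, edgeR adjusted p 0.00248), and Cldn1, the tight junction claudin, at 161, 334 and 71 against 0.236, 0.316 and 0.281 (9.11, SE 1.01, edgeR adjusted p 0.00236). Perp, a desmosomal protein gene, was on the mural side, at 2.81, 0.134 and 0.500 CPM against 751, 280 and 552. Other fibroblasts held 35.4, 0.835 and 1.32 CPM of Tenm2 and 123, 32.7 and 8.14 CPM of Cldn1. Summed over the list, cluster 10 had 450, 643 and 444.5 CPM and mural cells 866, 320 and 639. The sum in other fibroblasts was 733, 69.4 and 42.2 CPM, so in Cspg4dsRED it exceeded that of cluster 10. The other defining perineurial genes Itgb4, Lypd2, Moxd1, Krt19, Msln and Crabp2 were at or near 0 in cluster 10, with at most 0.234 CPM. Slc2a1, the glucose transporter of the perineurial barrier, was at 20.3, 35.2 and 120 CPM and was not called. Of 8 epineurial markers, 7 were tested and none was called in either direction. Pi16 was at 33.0, 194 and 70.5 CPM in cluster 10, under the 736 to 1139 CPM of other fibroblasts.

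Markers of other cell types were followed as well, and the authors had already removed cells with endothelial or immune signatures, so low levels of those markers were set in part by that filter. The 12 Schwann markers summed to 977, 1034 and 887 CPM in cluster 10, to 165, 151 and 122 in mural cells and to 1296, 755 and 1087 in other fibroblasts. In cluster 10 the sum came largely from Pmp22, a myelin gene also expressed by fibroblasts, at 751, 513 and 227 CPM, from Cdh19 and from Scn7a, a sodium channel gene, at 15.2, 132 and 220 CPM, while Sox10, Erbb3 and Gfap were at 0 to 1.40 CPM. The part of glial RNA in these values was not tested. Of the 12, 4 were tested, with a median log2 fold change of 4.81, and 1 was called, Cdh19, a cadherin of glia and their precursors, at 168, 368 and 325 CPM against 0.945, 0.632 and 0 (9.29, SE 1.21, edgeR adjusted p 0.00479). Of 10 endothelial markers, 4 were tested and none called, and their summed level in cluster 10 was 25, 33.4 and 802 CPM, the last in the label with the Pecam1 cell. Immune markers summed to 0.500 to 27.9 CPM in cluster 10 and 2.21 to 20.9 in mural cells, with Ptprc and Adgre1 at 0 in cluster 10. Muscle markers summed to 19.0 to 64.3 and 68.5 to 283 CPM, and adipocyte markers to 0 and at most 0.281 CPM.

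**Figure D3:**
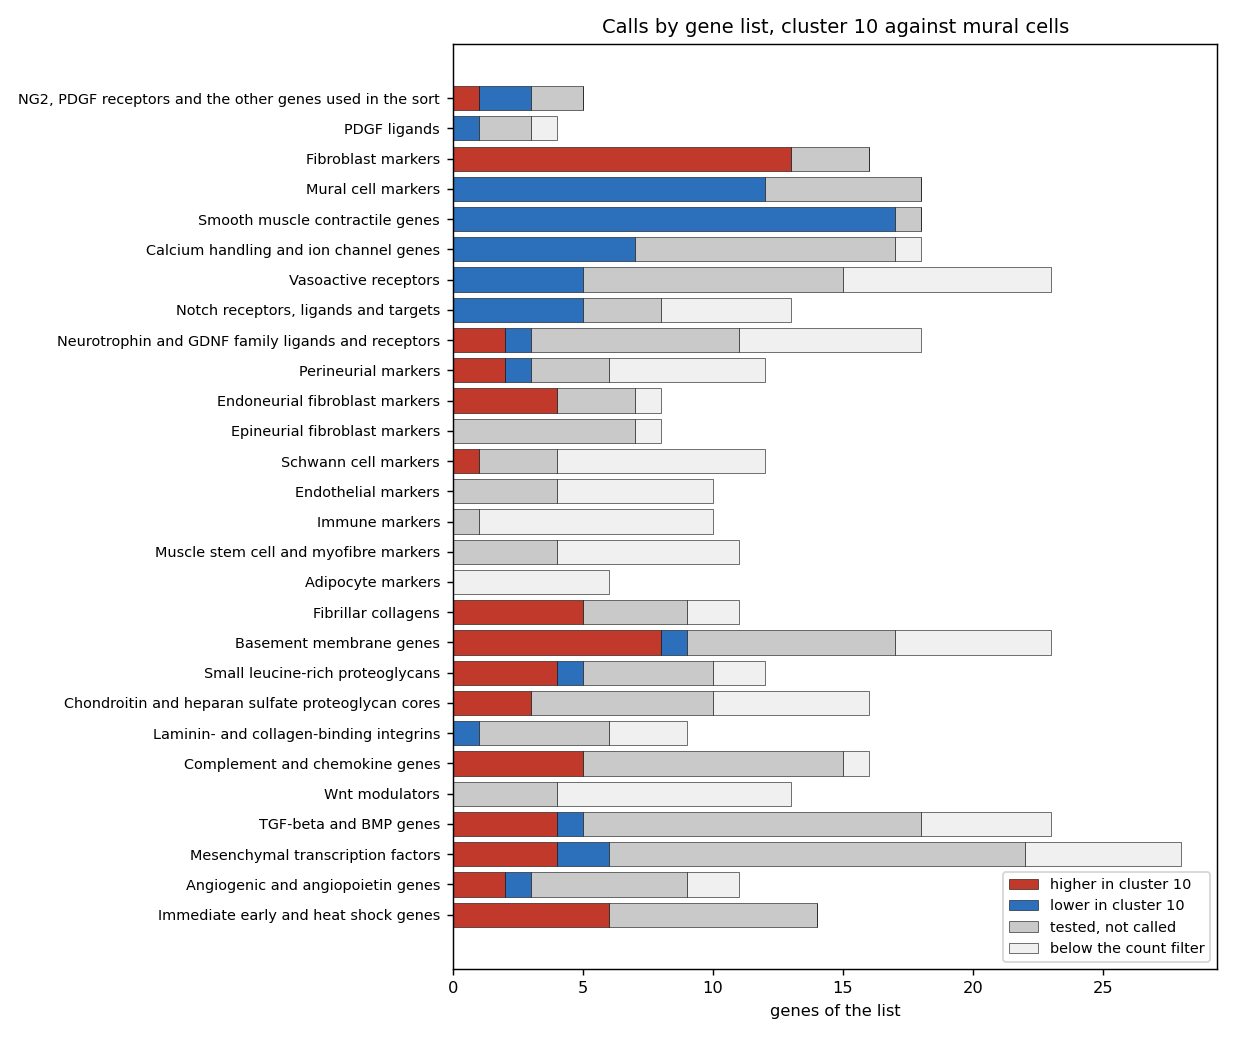
Horizontal bars give, for each of 28 gene lists, the number of genes called higher (red) or lower (blue) in cluster 10, tested and not called (grey), or below the count filter (light grey). Contractile genes are blue in 17 of 18 and fibroblast markers red in 13 of 16, while the endoneurial list holds red alone, the perineurial list both colours and the epineurial list none.

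Matrix genes showed which extracellular products went with each cluster. Of 11 fibrillar collagens, 9 were tested and 5 called higher, with none lower. Col3a1 stood at 5333, 6172 and 6819 CPM against 55.9, 289 and 151 (5.61, SE 0.52, edgeR adjusted p 0.00141), and Col5a3 at 339, 562 and 512 against 1.54, 15.2 and 3.51. In other fibroblasts Col3a1 was 2992 to 4339 CPM and Col5a3 276 to 498, so cluster 10 did not stand apart from them in the way it did from mural cells.

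Basement membrane components divided by chain. Of 23 genes, 17 were tested, 8 were called higher and 1 lower. The laminin chain gene Lama2 was at 278, 855 and 1601 CPM in cluster 10 and at 2.95, 53.4 and 15.0 in mural cells (5.91, SE 0.73, edgeR adjusted p 0.00382), while Lama5 was at 0.935, 0.268 and 35.0 against 253, 491 and 377 (-7.23, SE 1.59, edgeR adjusted p 0.0407), a call lost without the pool (0.0668) and with equal numbers of cells (0.14). Without the cells with Pecam1, the log2 fold change of Lama5 was -9.32 (edgeR adjusted p 0.000703). Lamb1 was at 287, 744 and 630 CPM against 0.472, 40.1 and 3.51. The linker Nid1 was at 615, 2058 and 2019 against 2.13, 200 and 19.5, and Col15a1, a collagen of the basement membrane zone, at 398, 1042 and 805 against 0.945, 99.5 and 1.40 (7.45, SE 1.42, edgeR adjusted p 0.0237). In mural cells both were highest in the pool, mainly on its gastrocnemius plate. There Col15a1 was at 242 CPM and Nid1 at 444, against 6.20 and 37.2 on the soleus plate. Type IV collagen genes were not called, with Col4a1 at 273, 413 and 294 CPM against 239, 434 and 453 (-0.05, SE 0.40, edgeR adjusted p 0.971). Itga7, the laminin-binding integrin of muscle, was at 1.40, 0.268 and 0.500 CPM against 434, 469 and 504 (-9.35, SE 0.81, edgeR adjusted p 0.00118), the 1 call among 6 integrins tested.

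Some proteoglycan cores other than NG2 were higher in cluster 10. Of 16 chondroitin and heparan sulfate cores, 10 were tested, 3 were called higher and 7 were not called. Gpc3, a glypican that modulates hedgehog and Wnt signals, was at 5387, 2216 and 4717 CPM against 187, 85.6 and 82.2 (5.24, SE 0.39, edgeR adjusted p 0.000961), and other fibroblasts held only 237 to 400 CPM. Vcan, versican, was at 231, 298 and 114 against 0.945, 5.37 and 0.842. The syndecan gene Sdc2 was at 973, 771 and 995 against 456, 209 and 291 (1.70, SE 0.36, edgeR adjusted p 0.0372), a call that was lost when any 1 label was left out (edgeR adjusted p 0.051 to 0.166). Small leucine-rich proteoglycans gave 4 calls higher and 1 lower among 10 tested. Podn, podocan, was at 1322, 775 and 2084 against 5.67, 12 and 22.9 CPM (6.90, SE 0.57, edgeR adjusted p 0.00118). Aspn, asporin, was the exception, at 3.04, 19.5 and 5.00 CPM in cluster 10 and at 790, 1160 and 1166 in mural cells (-7.11, SE 0.64, edgeR adjusted p 0.00133), although other fibroblasts held 289 to 656 CPM.

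Secreted signals were also called in cluster 10. Of 16 complement and chemokine genes, 15 were tested and 5 called higher. Ccl11, eotaxin, was at 1799, 1291 and 1499 CPM against 4.13, 33.2 and 8.98 (7.26, SE 0.82, edgeR adjusted p 0.00248). The monocyte attractants Ccl7 and Ccl2 were at 673, 94.9 and 97.0 against 2.36, 0.632 and 0.281, and at 543, 36.8 and 83.0 against 1.30, 0 and 0.281. Both were highest in Cspg4dsRED, and without that label Ccl2 was not called (edgeR adjusted p 0.153). Of 23 TGF-beta and BMP genes, 18 were tested, with 4 called higher and 1 lower. Bmp7, a bone morphogenetic protein, was at 356, 374 and 378 CPM, almost level over the labels, against 0.591, 1.90 and 0.140 (9.23, SE 0.93, edgeR adjusted p 0.00177) and 12.9 to 37.2 in other fibroblasts. Tgfb3 was at 35.8, 74.9 and 16.5 against 409, 303 and 365 (-3.21, SE 0.66, edgeR adjusted p 0.031), a call lost without Cspg4dsRED (0.0645) or PdgfrbGFP (0.0736). On the gastrocnemius plate of the pool its 6 mural cells had less, at 37.7 CPM, than the 10 cells of cluster 10, at 74.4 CPM. Of 13 Wnt modulators, 4 were tested and none was called. The angiopoietin-like gene Angptl7 was at 3599, 2364 and 4129 CPM against 13.8, 20.2 and 20.5 (7.63, SE 0.45, edgeR adjusted p 0.000953), and Angpt2, a ligand of the endothelial receptor Tie2, was on the mural side, at 0.701, 0.403 and 0 against 107, 194 and 66.0 (edgeR adjusted p 0.014, or 0.113 without the pool).

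A minority of the mesenchymal transcription factors separated the clusters. Of 28, 22 were tested, 4 were called higher and 2 lower. Beside Sox9 and Osr2 these were Foxp2, at 34.1, 92.5 and 114 CPM against 1.18, 0.632 and 0.982 (6.36, SE 1.45, edgeR adjusted p 0.0463, or 0.236 without PdgfrbGFP and 0.195 without the pool), and Klf4, at 171, 166 and 109 against 2.72, 6.32 and 8.56. Mef2c, which drives muscle genes, was at 17.1, 26 and 86.0 against 438, 366 and 426 (-3.49, SE 0.63, edgeR adjusted p 0.0184), and Tbx2 at 2.81, 10.9 and 0 against 224, 313 and 194. Foxd1 had 0 counts in mural cells and 16.8, 22.3 and 18.0 CPM in cluster 10, at least 23.5-fold higher in each label, without a call (edgeR adjusted p 0.150).

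Immediate early and heat shock genes, which respond to handling and dissociation among other stimuli, were in part higher in cluster 10. Of 14, all were tested, 6 were called higher and none lower. Jun was at 5883, 1772 and 4101 CPM against 675, 118 and 607 (3.37, SE 0.36, edgeR adjusted p 0.00192), Fosb at 514, 620 and 1120 against 55.2, 58.8 and 74.0, and the heat shock cochaperone Dnajb1 at 5182, 496 and 1082 against 245, 24 and 165 (3.95, SE 0.48, edgeR adjusted p 0.00355). Other fibroblasts from the same sorts had 1413, 908 and 1367 CPM of Jun, between both clusters in each label, and 198, 97.1 and 284 of Dnajb1. Atf3 and Dusp1, from the same list, did not differ beyond their error, with Dusp1 at 4159, 856 and 1417 against 3024, 976 and 1874 CPM (0.07, SE 0.32, edgeR adjusted p 0.954). Summed over the list, cluster 10 had 56340, 14020 and 32370 CPM and mural cells 15240, 6445 and 10710.

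The genes that held the largest gap in the worst of their 3 labels were listed without regard to function, with counts under 3 raised to 3. On the cluster 10 side, the 12 were Ngfr, Shisa3, Spp1, Trf, Osr2, Bmp7, Tenm2, Il33, A2m, Ccl9, Psat1 and Nt5e. Shisa3, whose product holds back Wnt and FGF receptors, was at 277, 729 and 432 CPM against 0.118, 0.948 and 0 (10.96, SE 0.97, edgeR adjusted p 0.00129). Spp1, osteopontin, was at 905, 499 and 880 against 1.30, 1.26 and 1.12, and Il33, an alarmin, at 898, 1203 and 1044 against 1.54, 6.00 and 1.68 (8.80, SE 0.62, edgeR adjusted p 0.000953). A2m, a protease inhibitor, was at 162, 208 and 215 CPM, while other fibroblasts had at most 0.126 CPM, and the chemokine Ccl9 was at 129, 354 and 120 with at most 0.952 in other fibroblasts. Those genes were thus near 0 in both comparison groups. The iron carrier Trf was at 3856, 1397 and 2616 CPM, with the read-through gene Gm20425 over 63.5% of its exon length. The serine synthesis enzyme Psat1 was at 351, 290 and 150 CPM, and Nt5e, the ectonucleotidase CD73, at 71.8, 219 and 144. Of the 2 called genes with no count in mural cells, named after their values had been seen, Col28a1 encodes a collagen known from peripheral nerve and Cpne7 a copine.

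On the mural side the 12 were Sorbs2, Gucy1a1, Olfr558, Olfr78, Slc2a4, Notch3, Myocd, Pdlim3, Cap2, Gpr20, Mrvi1 and Itga7. Gucy1a1, a subunit of the nitric oxide receptor guanylate cyclase, was at 3.97, 1.21 and 3.50 CPM in cluster 10 and at 1283, 2207 and 2711 in mural cells (-9.43, SE 0.69, edgeR adjusted p 0.000961). Mrvi1, a target of cGMP kinase, was at 0.701, 0.134 and 1.5 against 235, 453 and 525. The olfactory receptors Olfr78 and Olfr558, known from vascular smooth muscle, were at 784, 964 and 816 CPM and at 689, 819 and 928 CPM in mural cells, with at most 2.10 in cluster 10. Slc2a4, the insulin-responsive glucose transporter, was at 1335, 734 and 772 CPM against 3.97, 0.403 and 0 (-9.80, SE 0.93, edgeR adjusted p 0.00151). Within mural cells some of the 12 still varied over the labels, such as Gpr20, an orphan receptor, at 1057, 323 and 618 CPM and Pdlim3, a PDZ and LIM protein, at 2236, 722 and 1137.

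**Figure D4:**
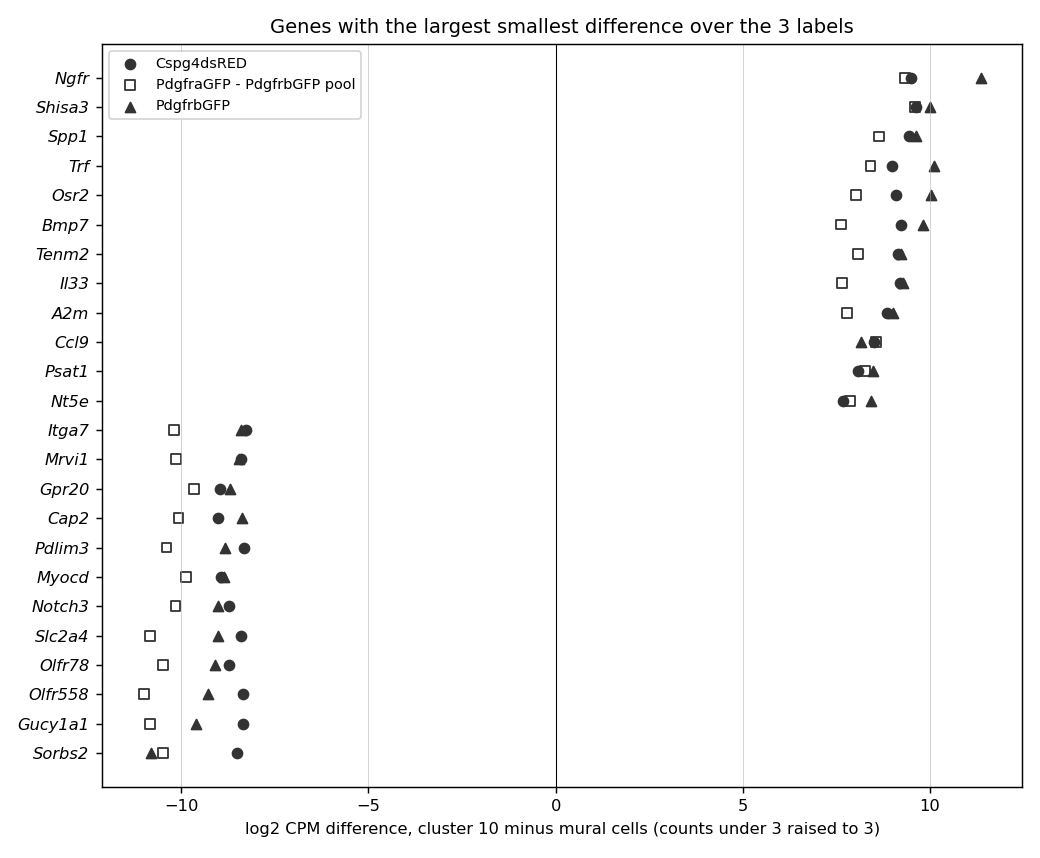
For the 24 genes with the largest smallest gap, the horizontal axis gives the log2 CPM difference of cluster 10 minus mural cells in each strain label, with counts under 3 raised to 3 (circle Cspg4dsRED, square the pool, triangle PdgfrbGFP). That the 3 symbols of a gene lie on 1 side of 0 follows from how the genes were chosen.

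A further set of 8 genes was shared by the clusters. They were not called between cluster 10 and mural cells, differed by a log2 fold change under 1, and were at least 2 log2 CPM above other fibroblasts in both clusters and all 3 labels. Rasgrp2, an activator of the small GTPase Rap1, was at 342, 439 and 308 CPM in cluster 10 and at 345, 255 and 267 in mural cells, with 7.58 to 10.3 in other fibroblasts. Kcne4, a potassium channel subunit, was at 759, 132 and 323 against 383, 296 and 236, with 1.14 to 19.0. Cdk6, a cyclin-dependent kinase, was at 32.0, 61.6 and 152 against 87.8, 52.8 and 93.2, with 0.605 to 2.15. That both clusters were alike for these genes and well above other fibroblasts follows from how the genes were chosen. Cpe, carboxypeptidase E, was at 2570, 962 and 1722 against 2344, 1065 and 1018 CPM, with 110 to 543 in other fibroblasts. The others were Mamdc2, Scarb1, Pitpnc1 and Notch1. Likeness of the clusters and the levels in other fibroblasts were both part of the rule, so they are a description. A missing call does not show equal levels. For Cdk6 the SE was 0.81, and on the gastrocnemius plate of the pool it was at 28.4 CPM in cluster 10 and 2.4 in mural cells. Cspg4 itself was outside the set. Other fibroblasts of Cspg4dsRED held 395 CPM, and in the pool cluster 10, at 204 CPM, was just short of the margin over their 52.1 CPM.

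**Figure D5:**
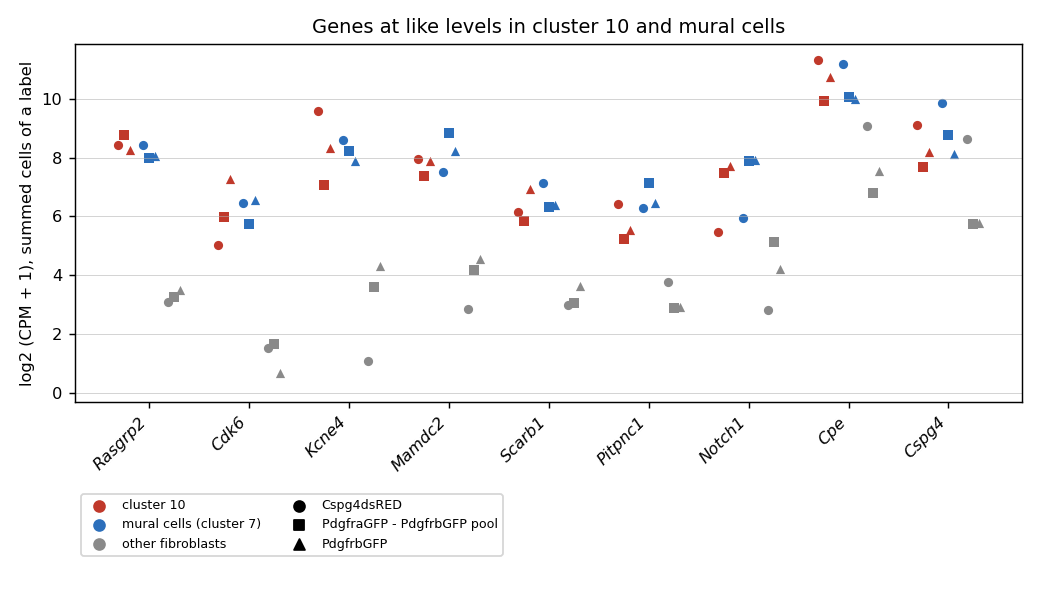
The 8 shared genes and Cspg4 along the horizontal axis and log2 of CPM plus 1 on the vertical axis, each symbol the summed cells of 1 strain label in cluster 10 (red), mural cells (blue) and other fibroblasts (grey). That red and blue symbols of the 8 genes lie at like heights with grey ones below follows from how the genes were chosen. For Cspg4 the grey symbol of Cspg4dsRED reaches the red ones.

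The pool had been plated by muscle, so levels could also be read by plate. Of the 100 genes chosen by the naming rule, 88 were called, and for 84 of these the plates of cluster 10 and of mural cells did not overlap over the 4 plates that held both clusters. The rule took mostly genes with large folds in these same cells, so the count is a description and says little of genes at large. The share of all tested genes without overlap was not determined, and 6.05% of them were called. Those with overlap were Hcrtr1, P2rx1, Ccl2 and Tgfb3, each through the gastrocnemius plate of the pool. Within the pool, Cspg4 in cluster 10 was at 248 CPM in gastrocnemius and 142 in soleus, and Shisa3 at 1093 and 216. Ngfr was at 502 and 780 CPM and Sox9 at 1035 and 766, while Notch3 in the mural cells was at 1691 and 833. With 1 plate for each muscle, no difference between muscles was tested.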

How the data were processed

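Raw read counts per gene and single cell had been deposited by the authors. They had demultiplexed single 50-base reads with bcl2fastq, trimmed them with trim galore, mapped them to GRCm38 with TopHat2 and counted them with featureCounts, and the methods state that doublets were removed with samtools, which is read here as duplicate reads. The annotation release and the use of strand are not given in the sources used here. The extraction text in the labels names heart, although the tissue is given as skeletal muscle. The methods state that cells with few counts, or with very few or very many genes, were dropped. They state the same for cells that expressed neither PDGF receptor gene and for cells with an endothelial or immune signature. Some cells of both clusters in Cspg4dsRED nevertheless had no counts of Pdgfra or Pdgfrb. The authors clustered the remaining cells with pagoda2, so the deposited counts also made the cluster labels. Doublets were not searched for again.

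Among 1754 columns of cells, 1 matched no label and was not used. There were 46517 genes and 92 spike-ins. Gene identifiers were paired with symbols and positions of GENCODE M21 for 46005 genes, and 512 had no match. No animal is named in the labels. Strain labels were used as replicates and assumed to stand for different mice, so p-values measure the spread between labels, and the independence of the pool from PdgfrbGFP was not tested.

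Counts without spike-ins were summed per cluster and label where 3 or more cells were present, and tested with edgeR 4.0.16 (R 4.3.3) after TMM scaling and filterByExpr. The quasi-likelihood test was two-sided, with the label as a block and Benjamini-Hochberg adjustment over 11351 genes. Printed CPM values were scaled by TMM over the libraries of both clusters and of the other fibroblasts together. The study had compared single cells with monocle. Shares of cells carry exact Clopper-Pearson intervals. PCR reads without molecular identifiers are not independent molecules, so intervals and floors cover counting error only. On simulated counts for cluster 10 against mural cells (10863 genes), genes changed by a log2 fold of 2 were recovered in 10.1% of 99 cases and by 4 in 47.4% of 95, while 0.0187% of unchanged genes were called.

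The 100 named genes were the cell type markers, up to 4 called members of each of 28 lists with the largest fold change and members a sentence on a list needs, the 12 genes on either side with the largest smallest difference, and up to 10 genes shared by both clusters and above other fibroblasts, of which 8 met the rule. Members, lists and tests were chosen with earlier results of these data known. Alternatives covered RLE scaling, no filter, DESeq2 1.42.0, no block, plates as the unit, equal weight or equal numbers of cells, other fibroblasts as a further group and each label left out. Leaving out the cells with Pecam1 and a looser promoter motif were added after the data had been seen. Promoter windows came from RefSeq. Results for some genes are not reported here.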

Additional observations from a re-analysis of the deposited data

Results flagged for a closer look

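Over the 5 mural libraries (Cspg4dsRED, the pool, PdgfrbGFP, Acta2GFP and C57BL6), 93 of the named genes could be examined for a library far from the others, and 15 were found by Dixon's ratio of gap to range above 0.71. Chance alone flags about 1 in 20 groups. Values are log2 CPM in the library that stood apart, with the range of the other 4.

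C57BL6, with 9 mural cells, stood apart for 6 genes. It was low for Myocd at 6.75 (others 9.21 to 9.45), for Cacna1h at 4.56 (7.53 to 8.03), for Angpt2 at 1.27 (5.97 to 7.60) and for Angptl4 at 0.53 (5.36 to 6.44). It was high for Fosb at 9.64 (5.59 to 6.21) and for Ccl9 at 5.47 (-2.12 to -0.08). This label did not enter the comparison with cluster 10.

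The pool, with 11 mural cells, stood apart for 4 genes. It was low for P2rx1 at 6.43 (8.42 to 9.21), for Dnajb1 at 4.59 (7.37 to 7.94) and for Jun at 6.89 (8.99 to 9.40), and high for Col15a1 at 6.64 (-0.08 to 1.15). Cspg4dsRED was low for Dcn at 6.87 (8.46 to 9.03), and high for Tbxa2r at 8.71 (6.28 to 6.90) and for Cpe at 11.2 (9.99 to 10.3). Acta2GFP was high for Foxp2 at 3.10 (-0.08 to 0.53) and for Spp1 at 3.13 (0.17 to 0.53), both low levels. Without the pool, Col15a1 and Jun remained called, and without Cspg4dsRED Tbxa2r was not (edgeR adjusted p 0.129).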

How the results depend on the processing

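The 687 calls became 692 with RLE scaling, 1195 with no filter on low counts, 2532 with DESeq2, 1193 with other fibroblasts as a further group, 768 with cells weighted alike, 533 with equal numbers of cells, 686 with plates and 782 without the cells with Pecam1. Calls with at least 2 log2 units of change numbered 654, against 1092 with no filter, 2373 with DESeq2 and 1026 with the further group. Of the 687 genes, 686 were also called by DESeq2 and 677 with the further group, and no gene called in the comparison as reported had the opposite sign in any of these analyses. Leaving out a label gave 511 to 554 calls, of which 442 to 502 were among the 687. The 2 residual degrees of freedom limit the power. Higher genes made up 48.2 to 56.2% of the calls. The cause of these changes was not tested.

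Without the replicate block 843 genes were called, 576 of them among the 687. Library deviations of the same label correlated at 0.179, 0.0535 and 0.0601 over 11351 genes, each library closest to its own label, but not all above 0.1, so the labels share a name and pairing was not shown. Pdgfrb, Col15a1, Lama5, Nid1, Sdc2, Ltbp4 and Dnajb1 were not called without the block. With equal numbers of cells, Sort1, Lama5, Sdc2, Cxcl1, Tgfbr2, Foxp2 and Angptl4 were not called (edgeR adjusted p 0.0541 to 0.199). Without the cells with Pecam1, the calls of Tgfb3 (0.0683) and Foxp2 (0.0663) were lost, and with plates those of Tgfb3 (0.195) and Angptl4 (0.121).

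Among the named genes that were not called, the sign of the log2 fold change turned in these cases: Anpep 2.31, Scarb1 0.218, Pitpnc1 0.047 and Notch1 0.211 with equal numbers of cells, Cdk6 0.17 with no block, 0.84 with plates and 0.036 with the further group, Kcne4 -0.15 with plates, and Scarb1 0.119 without the Pecam1 cells. With a label left out, the value ranged from -4.54 to 0.71 for Kcnj8 (above 0 without the pool), from -2.07 to 0.37 for Anpep (without the pool), from -0.52 to 0.54 for Cdk6 (without Cspg4dsRED), from -0.28 (without Cspg4dsRED) to 0.84 for Kcne4, from -0.81 to 0.19 for Mamdc2 (without the pool) and from -0.66 to 0.13 for Scarb1 (without Cspg4dsRED).

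The threshold decides the shares of cells. At 20 scaled counts and at 1 count, Cspg4 was present in 80.7% and 88.7% of cluster 10 (50% at 100) and in 82.0% and 86.1% of mural cells (73.8%). Myh11 was present in 11.3% and 64.5% of cluster 10 (0%), Ngfr in 62.9% and 67.7% (46.8%) and Pdgfrb in 37.1% and 48.4% (16.1%). Notch3 was present in 77.9% and 87.7% of mural cells (62.3%). At 1 count, Ngfr was present in 4.92% of mural cells, Notch3 in 22.6% of cluster 10, Pdgfra in 77.4% of cluster 10 and 37.7% of mural cells, and Pdgfrb in 68.0% of mural cells. Thinning each cell to 45000 counts moved none of these shares beyond its interval.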
